A study of Mus musculus with 6 samples.

Results

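Skeletal muscle sarcomere and calcium genes were examined in wound tissues of db/db mice, a diabetic line with a mutated leptin receptor. The list held 42 genes of striated muscle, named by symbol, out of 33184 genes with an FPKM value (fragments per kilobase of gene, scaled to library depth). All 42 were in the table, and 41 averaged 0.5 FPKM or more over the 6 libraries and were tested among 16005 such genes. Round wounds of 0.6 cm were cut through epidermis and dermis, siRNA was injected around them at dpi1 (1 day post-injury), and tissues were frozen at dpi4. The NC group (3 libraries) received NC-siRNA, a control siRNA, and the SFRP2-siRNA group (3 libraries) received siRNA against SFRP2, a secreted Wnt-binding protein. All animals carried the dbdb genotype, and no unwounded or non-diabetic library was among the 6. The titles carry the code D3 beside a collection at dpi4, without explanation. The treated libraries are numbered siRNA-1 to siRNA-3, the names that the study's supplement gives to different SFRP2 siRNA sequences. Whether each library received a different sequence is not stated, so sequence and library cannot be told apart. Nothing in the labels says that libraries of a group came from separate animals, and the p-values measure only the spread between these libraries.

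A sarcomere is the contractile unit of striated muscle. Myosin of the thick filaments pulls on actin of the thin filaments, troponin and tropomyosin gate that pull by calcium, and Z-disc, M-band and titin proteins hold the filaments in register. Calcium is released from the sarcoplasmic reticulum by the ryanodine receptor after the voltage sensor in the membrane is activated, and it is pumped back by a calcium ATPase. Slow (type I) and fast (type IIa, IIx and IIb) fibres use different genes for many of these proteins, so fast and slow isoforms can be set side by side. Below the dermis of mouse back skin lies a thin sheet of striated muscle, the panniculus carnosus. Whether the tissue collected here held that sheet is not stated.

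Depth was similar in all libraries, with 42.9 M to 47.1 M reads (M, mega) recovered from the steps of the FPKM values, and 26081 to 27189 genes above 0. The siRNA target went against the labels. Sfrp2 had 11.6, 40.6 and 14.1 FPKM in NC 1 to 3, against 50.6, 54.6 and 55.2 FPKM in SFRP2-siRNA 1 to 3, so it was higher and not lower under its own siRNA label. Its log2 fold change was 1.45 (SE 0.43, limma, adjusted p = 0.518), so directions below are stated for the libraries as labelled and not for a loss of Sfrp2. The study reported less SFRP2 in siRNA-treated wounds of diabetic mice by immunofluorescence, which measures protein and not RNA. That staining was dated dpi3, whereas the libraries are described as collected at dpi4. SFRP2-siRNA 1 stood apart from the other libraries. It had 363 genes, 2.27% of those tested, at more than 4-fold below the lowest of the other 5 libraries, and the other libraries had 13 to 39 such genes each. These 363 included 82 keratin and keratin-associated genes and all 10 genes of a hair follicle list, as well as 7 of the 41 muscle genes. Results are therefore given with and without SFRP2-siRNA 1.

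Sequences upstream of 7 muscle genes are shown because these genes, of 1 tissue, fell into different patterns over the libraries. Each is the 120 bases before the RefSeq start in GRCm38.p6, 5′ to 3′ on the strand of the gene. Capitals mark letters that match a searched motif on either strand. The motifs were the E-box CANNTG, the MCAT element CATTCC, the letters TATAAA, the MEF2 site and the CArG box, which are bound in muscle genes by MyoD family, TEAD, TBP, MEF2 and SRF proteins. Myl3 (chr9:110763558-110763677, plus strand), Tnnc1 (chr14:31208192-31208311, plus strand) and Myh7 (chr14:54994627-54994746, minus strand) are slow fibre genes.
Myl3: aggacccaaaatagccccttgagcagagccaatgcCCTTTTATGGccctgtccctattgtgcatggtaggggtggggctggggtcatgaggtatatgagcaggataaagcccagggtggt
Tnnc1: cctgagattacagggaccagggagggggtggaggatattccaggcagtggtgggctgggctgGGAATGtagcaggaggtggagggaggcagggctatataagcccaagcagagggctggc
Myh7: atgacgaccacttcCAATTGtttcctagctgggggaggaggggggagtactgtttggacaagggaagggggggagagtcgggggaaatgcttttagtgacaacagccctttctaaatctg
Myl1 (chr1:66945057-66945176, minus strand), Mylpf (chr7:127211488-127211607, plus strand) and Myh4 (chr11:67237692-67237811, plus strand) are fast fibre genes, of which Myl1 and Myh4 are counterparts of Myl3 and Myh7, and Acta1 (chr8:123894776-123894895, minus strand), the actin of both fibre kinds, was the most abundant gene of the list.
Myl1: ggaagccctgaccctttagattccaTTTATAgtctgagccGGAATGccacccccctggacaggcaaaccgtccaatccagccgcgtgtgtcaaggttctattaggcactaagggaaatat
Mylpf: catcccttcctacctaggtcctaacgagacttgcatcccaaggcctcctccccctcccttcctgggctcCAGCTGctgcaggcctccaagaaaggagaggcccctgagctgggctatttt
Myh4: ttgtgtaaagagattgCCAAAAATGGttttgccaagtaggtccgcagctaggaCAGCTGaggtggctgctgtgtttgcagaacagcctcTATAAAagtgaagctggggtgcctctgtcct
Acta1: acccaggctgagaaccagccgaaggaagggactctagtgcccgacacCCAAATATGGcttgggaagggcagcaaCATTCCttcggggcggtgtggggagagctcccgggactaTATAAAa

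Of the 42 genes, 32 had an upstream window in RefSeq. Over the 250 bases before the start, a CArG box was matched in 6 of the 32 genes (18.8%) and in 1.4% of the windows of all 27025 genes. The MEF2 site was matched in 5 of 32 (15.6%) against 3.01% of all, and CATTCC in 10 of 32 (31.2%) against 12.6%. An E-box was matched in 26 of 32 (81.2%) against 66.0%, and TATAAA in 5 of 32 (15.6%) against 13%. All 8 genes labelled slow in the pairs below held an E-box and 0 of the 8 held a MEF2 match, whereas 5 and 2 of 7 labelled fast did. The 8 include Mybpc1 and Actn2, which are not confined to slow fibres. The windows of Myl2 lay 7762 and 8227 bases from the nearest start in GENCODE vM21. These matches are letters in a window and carry no measurement from these libraries.

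Between the groups, no muscle gene passed the threshold (limma, adjusted p under 0.05 and a log2 fold change above 1 in size), and the background was 0.0% of 16005 genes. The study did report genes past the same thresholds in dpi4 wounds, in both directions, with DESeq2. That test was not run here, so the 0.0% belongs to the limma fit of FPKM values. The smallest adjusted p among the 41 was 0.518. At an unadjusted p under 0.05 there was 1 muscle gene, Cacng1, which was higher, and 0 lower ones, where 6.72% of all genes were higher and 2.86% lower at that level. With a log2 fold change above 1 in size as well there were 0 muscle genes, where 0.256% of all genes were higher and 0.637% lower. The groups did not overlap for 1 muscle gene, again Cacng1, where 13.9% of all genes were higher and 3.92% lower without overlap. The log2 fold change was above 0, that is higher under the SFRP2-siRNA label, for 32 of 41 genes, where 71.8% of all genes were, and below 0 for 9, where 28.2% were. The median log2 fold change was 0.53 over the muscle genes and 0.13 over all genes. In a bulk sample, fewer muscle fibres and less RNA per fibre cannot be told apart. Beneath the group comparison lay a pair of patterns in opposite directions, a drop of slow fibre transcripts in SFRP2-siRNA 1 and a general excess in SFRP2-siRNA 3.

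**Figure D1:**
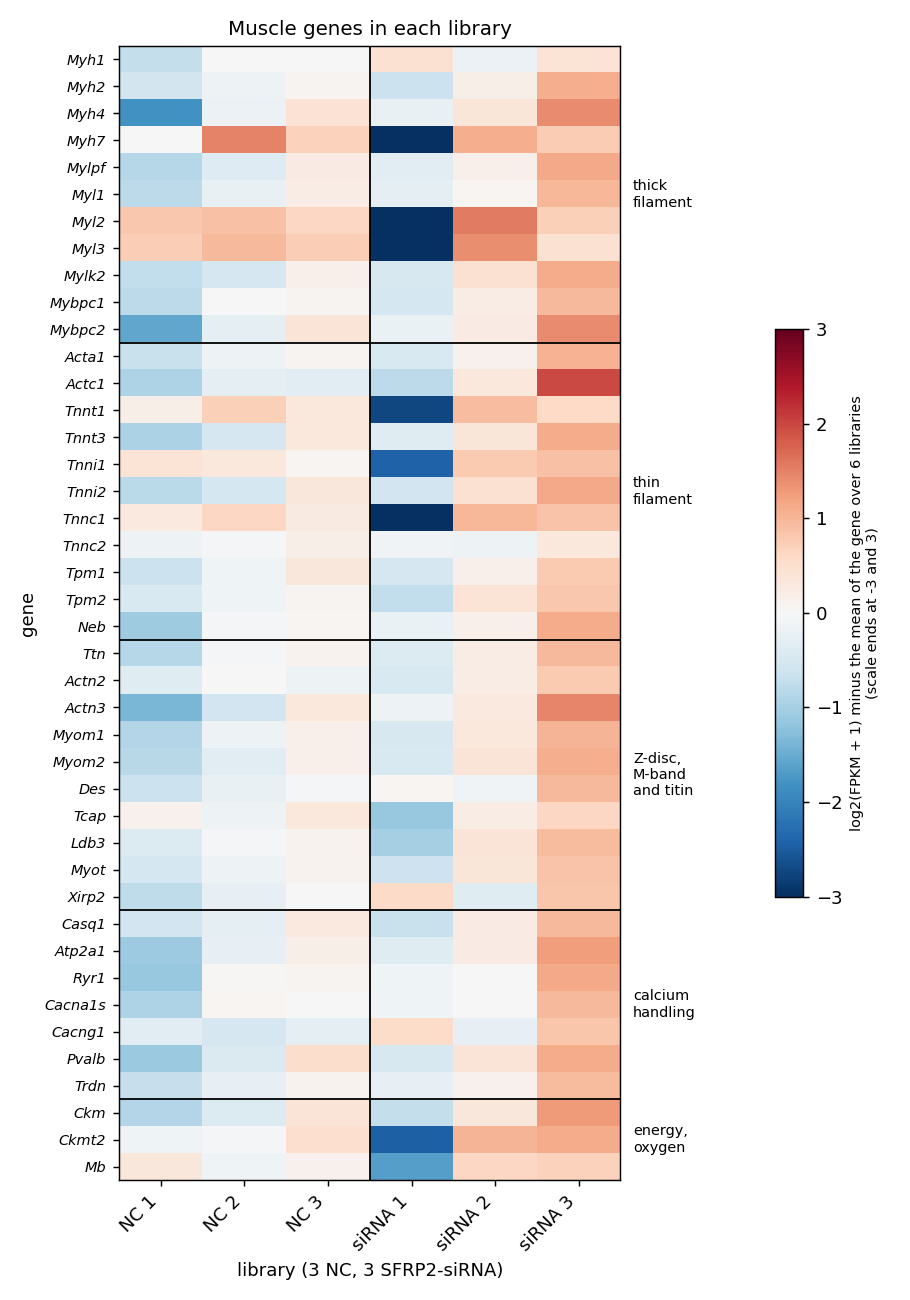
Heat map of the 42 muscle genes (rows, grouped by role) in the 6 libraries (columns). Colour gives log2(FPKM + 1) minus the mean of that gene over 6 libraries, and the slow genes Myh7, Myl2, Myl3 and Tnnc1 lie at the dark blue end in SFRP2-siRNA 1 while SFRP2-siRNA 3 is red for most genes.

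Thick filament genes of slow fibres were almost missing from SFRP2-siRNA 1. Myh7, the slow myosin heavy chain, had 19.3, 56.5 and 32.0 FPKM in NC 1 to 3 and 0.257, 42.5 and 33.7 FPKM in SFRP2-siRNA 1 to 3. SFRP2-siRNA 1 thus lay 75.1-fold below the lowest other library, on 95 reads against 7331 to 22815. The other libraries labelled SFRP2-siRNA lay within the range of NC. Myl2, the slow regulatory light chain, had 66.5, 70.0 and 58.1 FPKM in NC and 0.633, 113.3 and 62.8 FPKM in SFRP2-siRNA 1 to 3. Here the lowest library was 91.8-fold below the next one, the widest gap among the muscle genes, and SFRP2-siRNA 2 was the highest of all. Myl3, the slow essential light chain, had 48.6, 57.3 and 48.5 FPKM in NC and 0.524, 77.2 and 40.0 FPKM in SFRP2-siRNA 1 to 3. Its gap was 76.3-fold, and the group comparison gave a log2 fold change of -1.62 (SE 1.36, limma, adjusted p = 0.612). Without SFRP2-siRNA 1 that value was 0.11 (SE 0.29, limma, adjusted p = 0.853). Myh7 and Myl2 moved likewise, from -1.45 (SE 1.32) to 0.20 (SE 0.40) and from -1.52 (SE 1.48) to 0.38 (SE 0.28). Reads of Myh7 can be shared with Myh6, a near-identical myosin heavy chain, and Myh7 overlaps antisense genes such as Mhrt. Whether counting used strand is not stated. Myh6 had 7.21 to 15.6 FPKM in the other 5 libraries and 0.121 FPKM in SFRP2-siRNA 1.

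Fast thick filament genes showed no such gap. Myh4, the type IIb myosin heavy chain, had 91.6, 287 and 442.9 FPKM in NC 1 to 3 and 277.5, 420.3 and 878.9 FPKM in SFRP2-siRNA 1 to 3. Myh1, the type IIx heavy chain, had 120.1, 198.7 and 199.5 FPKM in NC and 272.4, 175.3 and 264.1 FPKM in the other group. It was the only muscle gene tested that was highest in SFRP2-siRNA 1. Myh2, the type IIa heavy chain, had 53.4, 70.5 and 83.3 FPKM in NC and 49.6, 89.0 and 168.1 FPKM in SFRP2-siRNA 1 to 3. For these 3 heavy chains the groups overlapped. Myh1, Myh2 and Myh4 are near-identical neighbours that can share reads, so the split between them is uncertain. Mylpf, the fast regulatory light chain, had 438.3, 612.3 and 951.6 FPKM in NC and 643.6, 882.9 and 1758 FPKM in SFRP2-siRNA 1 to 3. Myl1, the fast essential light chain, had 126.0, 187.4 and 255.6 FPKM in NC and 181.3, 226.9 and 440.6 FPKM in the other group. In both light chains NC 1 was the lowest library and SFRP2-siRNA 3 the highest, and SFRP2-siRNA 1 lay inside the range of NC.

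Among the heavy chains, type I made up a small share that nearly vanished in 1 library. Myh7 was 6.78%, 9.22% and 4.22% of the summed FPKM of Myh1, Myh2, Myh4 and Myh7 in NC 1 to 3, and 0.0428%, 5.84% and 2.5% in SFRP2-siRNA 1 to 3. Myh4 was 32.2%, 46.8% and 58.5% in NC and 46.3%, 57.8% and 65.4% in SFRP2-siRNA 1 to 3. Type IIb was thus the largest share in 5 of the 6 libraries, and type IIx was larger in NC 1. Myh1 was 42.2%, 32.4% and 26.3% in NC and 45.4%, 24.1% and 19.6% in the other group. Myh2 was 8.26% to 18.8% over all libraries. Shares overlapped between the groups for each heavy chain, with exact permutation p-values from 0.2 for Myh7 to 0.7 for Myh1, where 0.1 is the smallest that 3 against 3 libraries allow.

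Myosin-binding protein C and the kinase of the fast light chain did not follow the slow myosins. Mybpc1, labelled the slow isoform but also made by fast fibres, had 65.6, 115 and 121.7 FPKM in NC 1 to 3 and 79.5, 133.9 and 226.6 FPKM in SFRP2-siRNA 1 to 3. Mybpc2, the fast isoform, had 22.8, 56.5 and 90.5 FPKM in NC and 60.1, 82.2 and 187.6 FPKM in the other group. Both were lowest in NC 1 and highest in SFRP2-siRNA 3, and the groups overlapped. Mylk2, the skeletal myosin light chain kinase, ranged from 13.4 FPKM in NC 1 to 50.5 FPKM in SFRP2-siRNA 3. Its log2 fold change was 0.72 (SE 0.42) with all libraries and 1.14 (SE 0.31, limma, adjusted p = 0.327) without SFRP2-siRNA 1.

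Thin filament genes divided in the same way. Tnnt1, slow troponin T, had 50.9, 73.4 and 55.9 FPKM in NC 1 to 3 and 5.85, 85.3 and 68.4 FPKM in SFRP2-siRNA 1 to 3. Tnnt3, fast troponin T, had 284.4, 386.5 and 678.1 FPKM in NC and 426, 702.3 and 1182 FPKM in the other group. The slow gene was 8.71-fold below the next library in SFRP2-siRNA 1, while the fast gene lay inside the range of NC there. Tnni1, slow troponin I, had 27.5, 25.9 and 21.3 FPKM in NC and 2.97, 35.8 and 38.6 FPKM in SFRP2-siRNA 1 to 3. Tnni2, fast troponin I, had 253.3, 311.3 and 560.9 FPKM in NC and 298, 607.9 and 980.5 FPKM in the other group. Tnni1 was 7.18-fold below the next library, and without that library it was higher in the remaining SFRP2-siRNA libraries (log2 fold change 0.57, SE 0.18, limma, adjusted p = 0.427). Tnnc1, the slow troponin C, had 134.9, 168.4 and 132.7 FPKM in NC and 12.5, 220.3 and 201.0 FPKM in SFRP2-siRNA 1 to 3, a gap of 10.6-fold. The slow troponins thus stood at 9.41% to 13.9% of the lowest other library, where the slow myosin genes stood at 1.09% to 1.33%. With all libraries the log2 fold changes of Tnnt1 and Tnnc1 were -0.81 (SE 0.92) and -0.78 (SE 1.03), and without SFRP2-siRNA 1 they were 0.36 (SE 0.23) and 0.54 (SE 0.22).

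Tnnc2, fast troponin C, was the 1 muscle gene that was not tested. It had 0.113, 0.187 and 0.409 FPKM in NC 1 to 3 and 0.146, 0.110 and 0.557 FPKM in SFRP2-siRNA 1 to 3, on 4 to 21 reads. Its partners in the fast troponin complex, Tnni2 and Tnnt3, were at 253.3 FPKM or more in the same libraries. In GENCODE vM21 it overlaps Ube2c on the other strand. Such an overlap is not particular to Tnnc2. Tnnc1 overlaps Nisch on the other strand, at 558 to 10390 reads, and Atp2a1 overlaps Rabep2, at 26669 to 147296 reads. The cause of the low values of Tnnc2 was not tested, and the fast to slow ratio of troponin C is given with that limit.

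Actin and the other thin filament genes were led by SFRP2-siRNA 3. Acta1, skeletal alpha-actin, had 1988, 2861 and 3345 FPKM in NC 1 to 3 and 2312, 3483 and 6532 FPKM in SFRP2-siRNA 1 to 3. Its log2 fold change was 0.49 (SE 0.47, limma, adjusted p = 0.651), or 0.088 without SFRP2-siRNA 3, and the groups overlapped. Actc1, cardiac alpha-actin, which immature skeletal fibres also make, ranged from 14.9 FPKM in NC 1 to 117.5 FPKM in SFRP2-siRNA 3 (log2 fold change 1.02, SE 0.65). Without SFRP2-siRNA 1 it had the largest log2 fold change of the muscle genes, 1.66 (SE 0.46, limma, adjusted p = 0.336), and the second highest library was at 36.7 FPKM. Acta1 and Actc1 are near-identical in their coding sequence and can share reads. The tropomyosins Tpm1 and Tpm2, which block or open the actin sites, had log2 fold changes of 0.29 (SE 0.39) and 0.33 (SE 0.42), and Neb, the giant ruler of the thin filament, had 0.70 (SE 0.42). Without SFRP2-siRNA 3 that of Tpm2 was 0.0014. Tpm2 was lowest in SFRP2-siRNA 1 at 222.2 FPKM, against 270.9 to 654.3 FPKM in the other libraries.

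**Figure D2:**
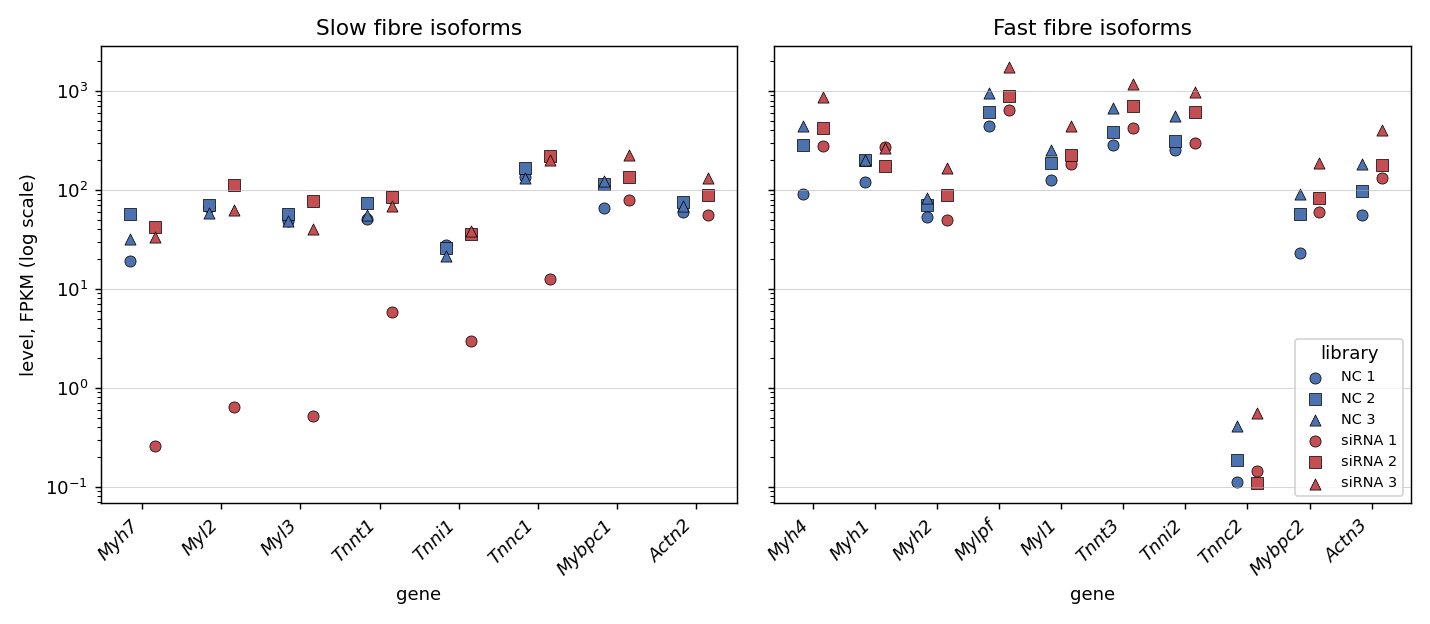
Levels in FPKM (log axis) of the 8 genes labelled slow (left) and 10 labelled fast (right) in each library. Blue is NC and red is SFRP2-siRNA, with the marker shape giving the library number. In SFRP2-siRNA 1 (red circles) Myh7, Myl2 and Myl3 lie below 1 FPKM and Tnnt1, Tnni1 and Tnnc1 between 2.97 and 12.5 FPKM, while the fast genes of that library lie among the others.

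Z-disc, M-band and titin genes had no member with such a gap. Tcap, the cap of titin at the Z-disc, had 377.3, 310.5 and 428.9 FPKM in NC 1 to 3 and 156.1, 401.5 and 527.9 FPKM in SFRP2-siRNA 1 to 3. Des, the intermediate filament desmin, had 141.0, 190.2 and 217.4 FPKM in NC and 229.8, 206.9 and 435.6 FPKM in the other group. Tcap was lowest in SFRP2-siRNA 1, by 1.99-fold, whereas desmin was lowest in NC 1. Actn3, the alpha-actinin of fast fibres, had 55.9, 97.9 and 182.0 FPKM in NC and 131.6, 178.7 and 405.3 FPKM in SFRP2-siRNA 1 to 3. Its log2 fold change of 1.08 (SE 0.55, limma, adjusted p = 0.528) was the largest of the 41 genes with all libraries, and the groups overlapped. Actn2, the alpha-actinin found in all fibres, had 59.6, 76.1 and 68.9 FPKM in NC and 55.4, 89.1 and 132.6 FPKM in the other group. Ldb3, a Z-disc adaptor, was 1.55-fold below the next library in SFRP2-siRNA 1. Ttn, Myom1, Myom2, Myot and Xirp2, which are titin, the M-band myomesins, myotilin and an actin-binding repair protein, had log2 fold changes from 0.39 for Myot to 0.69 for Xirp2. All 10 genes of this role were highest in SFRP2-siRNA 3, where 29.5% of all genes were. Of the 10, 6 were lowest in NC 1 and 4 in SFRP2-siRNA 1, where 46.9% and 14.3% of all genes were.

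All 7 calcium handling genes had a log2 fold change above 0, where 71.8% of all genes did, with a median of 0.68 against 0.13 over all genes, and 0 passed the adjusted threshold. Atp2a1, the calcium pump of fast fibres, had 173.9, 315.4 and 423.1 FPKM in NC 1 to 3 and 290.9, 445.7 and 899.1 FPKM in SFRP2-siRNA 1 to 3. Pvalb, the calcium buffer parvalbumin of fast fibres, had 89.8, 143.2 and 280.1 FPKM in NC and 139.0, 253.9 and 424.3 FPKM in the other group. Casq1, the calcium store protein of the reticulum, had 73.0, 90.5 and 134.1 FPKM in NC and 68.1, 129.5 and 213.3 FPKM in SFRP2-siRNA 1 to 3. For all 3 genes SFRP2-siRNA 3 was the highest library and the groups overlapped. Cacng1, the gamma subunit of the voltage sensor, was singled out after its values were seen as the 1 muscle gene whose groups did not overlap. It had 22.4, 20.0 and 23.2 FPKM in NC and 42.4, 24.0 and 52.0 FPKM in SFRP2-siRNA 1 to 3. The log2 fold change of Cacng1 was 0.76 (SE 0.28, unadjusted limma p = 0.0303, adjusted p = 0.518), and the exact permutation p was 0.1. SFRP2-siRNA 2 exceeded NC 3 by under 1 FPKM, and with median-of-ratios scaling or equal sums the groups of Cacng1 overlapped. Another subunit of the sensor, Cacna1s, the ryanodine receptor Ryr1 and the junction protein Trdn had log2 fold changes of 0.56 (SE 0.38), 0.68 (SE 0.45) and 0.55 (SE 0.34).

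Energy buffer and oxygen store genes again showed both patterns. Ckm, the cytosolic muscle creatine kinase, had 178.2, 247.5 and 430.2 FPKM in NC 1 to 3 and 201.5, 421.2 and 805.7 FPKM in SFRP2-siRNA 1 to 3. Ckmt2, the mitochondrial creatine kinase, had 44.0, 45.6 and 67.7 FPKM in NC and 8.0, 97.2 and 105.4 FPKM in the other group. SFRP2-siRNA 1 was 5.50-fold below the next library for Ckmt2 and within the range of NC for Ckm. Without SFRP2-siRNA 1, Ckmt2 had a log2 fold change of 0.96 (SE 0.24, limma, adjusted p = 0.287), the smallest p of the muscle genes in that fit, and with it -0.20 (SE 0.92). Mb, the oxygen store myoglobin, had 269.4, 194.5 and 234.5 FPKM in NC and 66.6, 329.7 and 344.8 FPKM in SFRP2-siRNA 1 to 3. Mb was 2.92-fold below the next library in SFRP2-siRNA 1, the first gene outside the 4-fold limit, which was itself chosen after values had been seen. The 7 genes inside the limit were Myh7, Myl2, Myl3, Tnnt1, Tnni1, Tnnc1 and Ckmt2, and Ckmt2 was the nearest to it.

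Fast to slow ratios were taken within each library, so scaling of the whole library has little effect on them. They are differences of log2(FPKM + 1) between a fast and a slow gene, and 10 pairs were formed from 10 fast and 8 slow genes, 3 of the pairs sharing Myh7. Myh4 against Myh7 gave 2.19, 2.32 and 3.75 in NC 1 to 3 and 7.79, 3.28 and 4.67 in SFRP2-siRNA 1 to 3. As a plain ratio of FPKM this was 1080 in SFRP2-siRNA 1 and 4.75 to 26.1 in the other 5 libraries. Mylpf against Myl2 gave 2.70, 3.11 and 4.01 in NC and 8.62, 2.95 and 4.79 in SFRP2-siRNA 1 to 3. Myl1 against Myl3 gave 1.36, 1.69 and 2.38 in NC and 6.90, 1.54 and 3.43 in the other group. In these 3 pairs SFRP2-siRNA 1 exceeded the next library by 3.13 to 3.84 on the log2 scale, while SFRP2-siRNA 2 lay within the range of NC and SFRP2-siRNA 3 above it. Tnnt3 against Tnnt1 gave 5.96 in SFRP2-siRNA 1 and 2.38 to 4.09 in the others, and Tnni2 against Tnni1 gave 6.23 and 3.16 to 4.65. Myh1 and Myh2 against Myh7 gave 7.77 and 5.33 in SFRP2-siRNA 1, against highest values of 2.93 and 2.29 elsewhere. Tnnc2 against Tnnc1 was -3.56 in SFRP2-siRNA 1 and -7.64 to -6.57 in the others, on the few reads of Tnnc2.

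Of the 10 pairs, 8 were highest in SFRP2-siRNA 1, 6 of them by over 2 on the log2 scale. The remaining 2 pairs, Mybpc2 against Mybpc1 and Actn3 against Actn2, were highest in SFRP2-siRNA 3 at -0.27 and 1.60, and lowest in NC 1 at -1.48 and -0.09. The groups overlapped in all 10 pairs, with exact permutation p-values from 0.2 to 0.9. The median over the pairs was 1.81, 1.74 and 2.49 in NC 1 to 3 and 6.10, 1.78 and 3.18 in SFRP2-siRNA 1 to 3. The group difference of this median was 1.67 with all libraries and 0.47 without SFRP2-siRNA 1, so most of it came from 1 library. Without it, the mean of the remaining SFRP2-siRNA libraries exceeded the NC mean in 9 of 10 pairs. Troponin C was the exception, with a difference of -0.44. SFRP2-siRNA 2 alone had a median over the pairs of 1.78, within the range of NC and below the NC mean of 2.01.

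**Figure D3:**
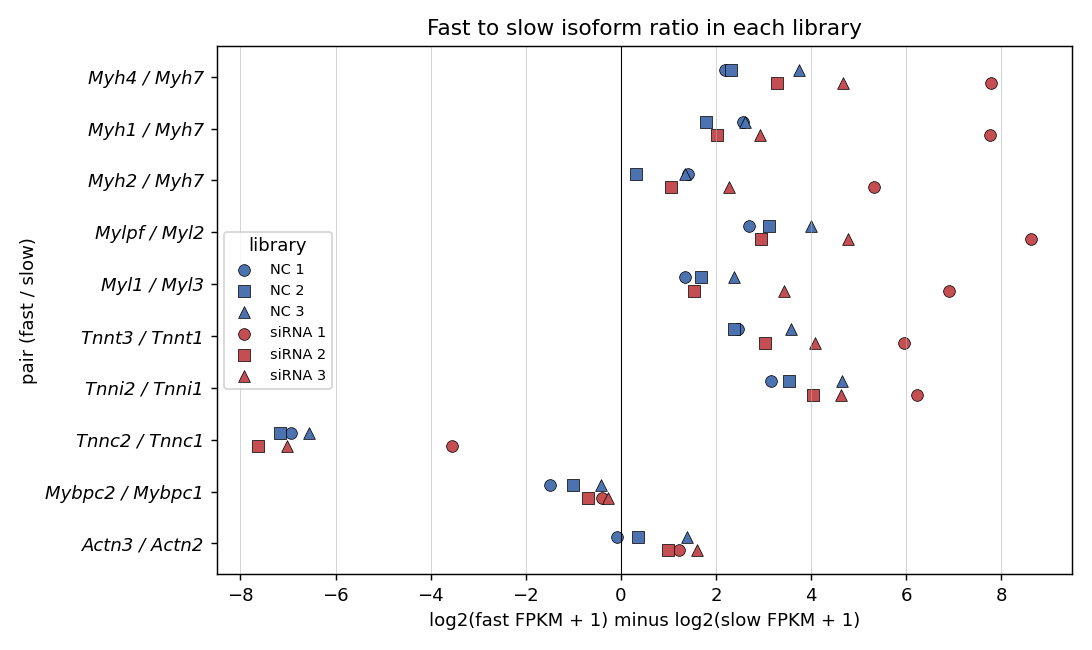
Fast to slow ratio, log2(FPKM + 1) of the fast gene minus that of the slow gene, for 10 pairs in each library, blue for NC and red for SFRP2-siRNA. SFRP2-siRNA 1 (red circles) lies to the right of the other libraries in 8 pairs, up to 8.62 for Mylpf against Myl2.

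The other pattern was the order of the libraries. SFRP2-siRNA 3 was the highest library for 35 of 41 muscle genes, where 29.5% of all genes tested were highest there. NC 1 was the lowest for 25 of 41, where 46.9% of all genes were, and SFRP2-siRNA 1 for 15, where 14.3% were. Levels in SFRP2-siRNA 3 were 0.824-fold to 9.59-fold those in NC 1, with a median of 3.28-fold. As a share of all FPKM summed, the muscle genes together took 1.33%, 2.22% and 2.86% in NC 1 to 3 and 1.84%, 2.95% and 5.28% in SFRP2-siRNA 1 to 3. Mitochondrially encoded transcripts took 35.8% of the summed FPKM in NC 1 and 11.8% to 22.2% in the others. With those transcripts left out, the muscle share was 2.07%, 2.86% and 3.46% in NC and 2.21%, 3.34% and 6.13% in the other group, and SFRP2-siRNA 2 then lay below NC 3. The part of these shares in the group differences was not tested.

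Leaving out SFRP2-siRNA 1 changed the group comparison. All 41 genes tested then had a log2 fold change above 0, where 75.0% of all genes did, with a median of 0.81 against 0.15 over all genes. At an unadjusted p under 0.05, 22 of the 41 were higher and 0 lower, where 5.56% of all genes were higher and 3.64% lower. Of these, 8 had a log2 fold change above 1, where 1.03% of all genes did and 1.11% were lower by as much. The groups did not overlap for 22 genes, all higher, where 23.7% of all genes were higher and 7.97% lower without overlap. No gene passed the adjusted threshold (0.0% of all genes), and the smallest adjusted limma p among the muscle genes was 0.287. The fit without SFRP2-siRNA 1 sets 2 libraries against 3, and 1 of these 2 is SFRP2-siRNA 3. Without SFRP2-siRNA 3 instead, the median was 0.18 and 28 of 41 genes were higher.

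**Figure D4:**
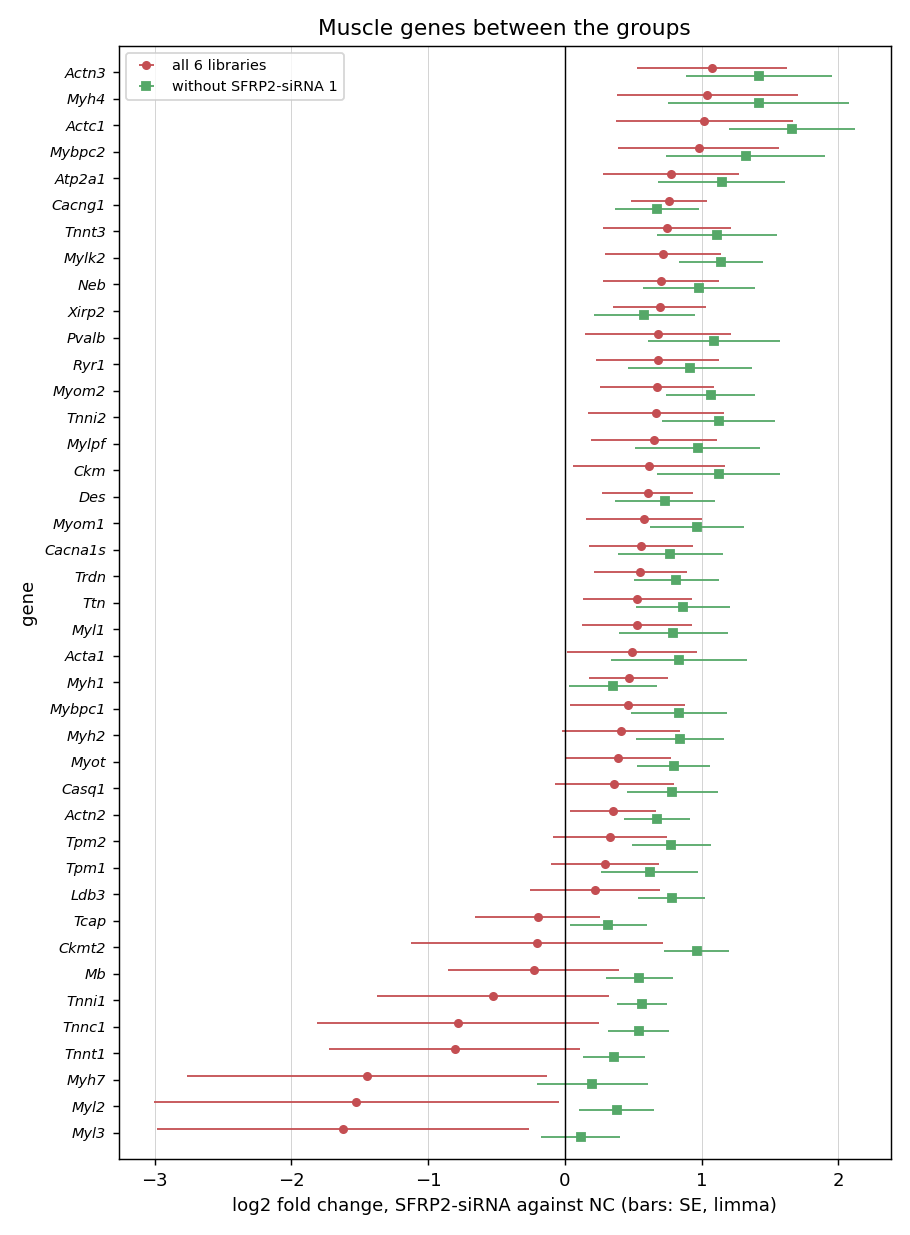
Log2 fold change of each of the 41 muscle genes tested, libraries labelled SFRP2-siRNA against NC, with bars for SE (limma), for all 6 libraries (red circles) and without SFRP2-siRNA 1 (green squares). Slow genes at the bottom move from -1.62 for Myl3 to values above 0 when that library is left out, and all 41 squares lie above 0.

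Further muscle genes, from lists of related function, were compared in the same fit, in which 71.8% of all genes lay above 0, with a median of 0.13. At an unadjusted p under 0.05, 6.72% of all genes were higher and 2.86% lower, and the counts below are at that level. All 18 other sarcomere genes had a log2 fold change above 0 (median 0.55), with 5 higher and 0 lower. Trim63, a ubiquitin ligase of wasting muscle, had 9.03, 8.4 and 11.8 FPKM in NC 1 to 3 and 18.6, 16 and 23.5 FPKM in SFRP2-siRNA 1 to 3. Its log2 fold change was 0.92 (SE 0.19, limma, adjusted p = 0.518). Its groups did not overlap, as for 4 of the 18 genes, all higher, where 13.9% of all genes were. Klhl41, a stabiliser of nebulin, had a log2 fold change of 0.76 (SE 0.26, limma, adjusted p = 0.518). None of these 18 genes had the 4-fold gap in SFRP2-siRNA 1. Of 14 other excitation and calcium genes, 13 were above 0 with a median of 0.36. There was 1 higher, Asph (log2 fold change 0.61, SE 0.24), and 0 lower, a share near that of all genes. The next smallest p in that list was that of Cacnb1, the beta subunit of the voltage sensor (log2 fold change 0.50, SE 0.25). Without SFRP2-siRNA 1, 5 of the 18 and 5 of the 14 genes were higher and 0 lower, where 5.56% of all genes were higher and 3.64% lower.

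Muscle energy genes were mixed. At an unadjusted p under 0.05, 0 of 11 genes were higher and 3 lower, where 6.72% and 2.86% of all genes were, and the median log2 fold change was 0.24. Without SFRP2-siRNA 1 the counts were 4 and 3, where 5.56% and 3.64% of all genes were higher and lower, and the median was 0.69. Slc2a4, the insulin-responsive glucose transporter, had 59.0, 43.8 and 39.6 FPKM in NC 1 to 3 and 21.0, 22.2 and 28.7 FPKM in SFRP2-siRNA 1 to 3 (log2 fold change -0.95, SE 0.20, limma, adjusted p = 0.518). Cox8b, a subunit of cytochrome oxidase in muscle and brown fat, had 358.6, 155.6 and 118.5 FPKM in NC and 83.3, 53.4 and 62.4 FPKM in the other group (log2 fold change -1.51, SE 0.42, limma, adjusted p = 0.518). Both genes are also made by adipocytes. Summed over 10 adipocyte markers, the level was 2280.6 to 2707 FPKM in NC and 3167.2, 1773.6 and 1303.2 FPKM in SFRP2-siRNA 1 to 3, and its part in these values was not tested.

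Genes of muscle regeneration also followed the order with SFRP2-siRNA 3 at the top. All 12 were highest in that library, where 29.5% of all genes were. Of the 10 that could be tested, 4 were higher at an unadjusted p under 0.05, where 6.72% of all genes were, and 0 lower. Myf6, a factor of maturing fibres, had 9.46, 10.8 and 9.43 FPKM in NC 1 to 3 and 23.4, 11.6 and 26.6 FPKM in SFRP2-siRNA 1 to 3 (log2 fold change 0.91, SE 0.29, limma, adjusted p = 0.518). Myog, the factor myogenin of fusing myoblasts, had 7.88, 6.82 and 13.3 FPKM in NC and 13.4, 14.1 and 26.0 FPKM in the other group (log2 fold change 0.85, SE 0.32, limma, adjusted p = 0.518). Both had groups that did not overlap, as had 6 of the 10 tested, all higher, where 13.9% of all genes were. The margins were narrow, 13.4 FPKM in SFRP2-siRNA 1 against 13.3 FPKM in NC 3 for Myog. For Myf6 they were 11.6 FPKM in SFRP2-siRNA 2 against 10.8 FPKM in NC 2. Whether the separation of these genes held under other scalings was not tested. Without SFRP2-siRNA 1, all 10 tested genes of this list were higher at an unadjusted p under 0.05, where 5.56% of all genes were. Pax7 and Myf5, markers of satellite cells, were below 1 FPKM in every library and were not tested.

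Markers of other cells were set beside the muscle genes. Smooth muscle markers summed to 172.6 to 184.1 FPKM in NC and 175.6 to 222.5 FPKM in the other group, with 1 of 8 tested genes, Lmod1, higher at an unadjusted p under 0.05, where 6.72% of all genes were. Acta2, the most abundant of them, had 117.3 to 152.1 FPKM, and Tagln, otherwise abundant in smooth muscle, had at most 0.491 FPKM. Cardiac markers summed to 24.7 to 35.3 FPKM in NC and 38.8 to 65.9 FPKM in the other group. Nppa was listed at 0 in 5 libraries and Myl7 and Mybpc3 were below 1 FPKM in every library, whereas Myh6 reached 15.6 FPKM in NC 2. Of the 6 cardiac markers tested, 3 were higher at an unadjusted p under 0.05, against the same 6.72% of all genes. Myl4 had 3.44 to 3.86 FPKM in NC and 6.43, 6.48 and 18.9 FPKM in SFRP2-siRNA 1 to 3, and Ankrd1 reached 32.5 FPKM in SFRP2-siRNA 1, both of which developing or injured skeletal fibres also make.

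Hair follicle markers also had a gap in SFRP2-siRNA 1. Their sum was 2500.2, 3461.7 and 5056.1 FPKM in NC 1 to 3 and 23.9, 5146.1 and 3820.7 FPKM in SFRP2-siRNA 1 to 3. Krt71, an inner root sheath keratin, had 6.17 FPKM in SFRP2-siRNA 1 and 744.2 to 1591 FPKM in the others, and Krt25 had 6.69 and 785.9 to 1562.3 FPKM. All 10 markers were lowest in that library, and their part in the gap of the slow genes was not tested. Keratinocyte markers, led by Krt14 and Krt5, summed to 6826.8 FPKM in SFRP2-siRNA 1, the highest of the libraries, and to 3504.1 FPKM in SFRP2-siRNA 3, the lowest. Krt14 and Krt5 made up most of that highest sum, at 3929.7 and 2096.7 FPKM. Yet 3 of the 10 markers were lowest in SFRP2-siRNA 1, where 14.3% of all genes were. Between the groups, 0 of 10 were higher and 1 lower at an unadjusted p under 0.05, where 6.72% and 2.86% of all genes were. Macrophage markers, led by Lyz2 and C1qb, summed to 975.6, 1599.2 and 1055.8 FPKM in NC and 2407.3, 1901.2 and 1775.9 FPKM in the other group, and 7 of 10 were higher at an unadjusted p under 0.05, where 6.72% of all genes were. Fibroblast markers, led by Col3a1 and Col1a1, summed to 952.8, 2052 and 1078.3 FPKM in NC and 2258.6 to 2349.8 FPKM in the other group, with 7 of 10 higher. Without SFRP2-siRNA 1 these counts were 1 of 10 for macrophage and 5 of 10 for fibroblast markers, where 5.56% of all genes were higher. Endothelial markers, led by Cdh5 and Pecam1, summed to 81.3 to 147.2 FPKM, with 0 of 10 at that level. Adipocyte markers were led by Fabp4 and Car3, with 0 of 10 higher and 1 lower, where 2.86% of all genes were lower, or 4 lower without SFRP2-siRNA 1, where 3.64% were. SFRP2-siRNA 3, the highest for most muscle genes, was the highest library for 0 of 10 macrophage, 0 of 10 fibroblast and 0 of 10 endothelial markers. It was also highest for 0 of 10 keratinocyte and 0 of 10 adipocyte markers. For smooth muscle it was highest for 4 of 10, for hair follicle 4 of 10 and for cardiac markers 2 of 9, against 29.5% of all genes.

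**Figure D5:**
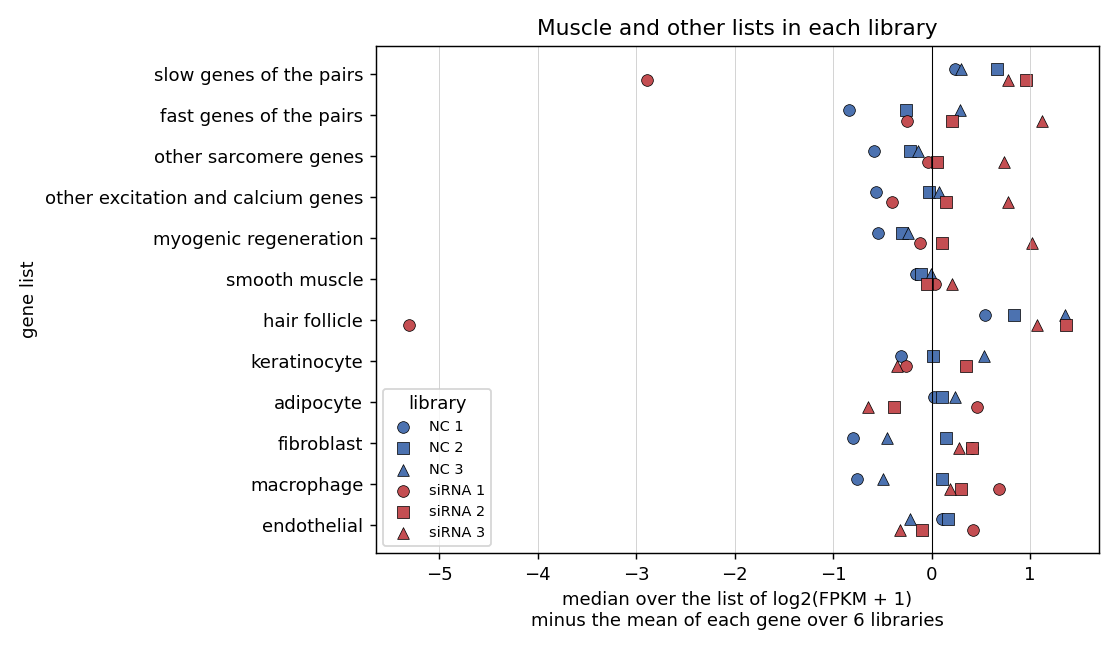
Median over each gene list of log2(FPKM + 1) minus the mean of each gene over 6 libraries, by library, blue for NC and red for SFRP2-siRNA. In SFRP2-siRNA 1 (red circles) the slow genes of the pairs lie at -2.89 and the hair follicle list at -5.31, and the muscle lists are highest in SFRP2-siRNA 3 except for the slow genes.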

How the data were processed

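The authors sequenced paired-end mRNA libraries of wound tissues and deposited 1 table of FPKM values, which is the only unit used. HISAT2, featureCounts and Subread are named in the submitters' processing notes, and the build, annotation and strand setting are not given in the sources used here. Symbols were matched for 32582 of 33184 gene IDs. With GENCODE vM21 lengths, 98.4% of 29131 genes had whole reads in every library (within 0.02 reads, up to 2000 reads), which gave the read totals. Mates may have been counted singly.

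Values were analysed as log2(FPKM + 1), which understates changes of low genes, for genes that averaged 0.5 FPKM or more. The test was limma 3.58.1 (eBayes with trend), run two-sided in R 4.3.3, and its p-values were adjusted over 16005 genes by Benjamini-Hochberg. For single values the exact permutation test over libraries, two-sided, was used. Tested on simulated data with 200 of 16005 genes changed by 2 on the log2 scale, limma recovered 85.4%, with 6 false calls. The simulated noise was independent between genes, and only genes with a mean log2 value above 2 were changed. No library stood apart in it, so that share need not hold for these libraries. The authors' own test, DESeq2, was not run, since the deposited unit is FPKM. The muscle genes, lists and pairs were chosen with earlier results of these data known. Values per library are given for both genes of each pair and for the 3 genes of highest mean in each role. Other muscle genes are given by ranges or fold changes, other lists by up to 2 genes with the smallest p, and cell markers by sums and up to 2 abundant genes. Alternatives were another pseudocount, filters, scalings, no trend, a replicate block, and leaving out each library.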

Additional observations from a re-analysis of the deposited data

How the results depend on the processing

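No alternative brought a muscle gene past the adjusted threshold (0 in every setting run). The median log2 fold change of the muscle genes was 0.53 as deposited, 0.58 with a pseudocount of 0.1, 0.38 with median-of-ratios scaling and 0.44 with equal sums, while that of all genes was 0.13 as deposited and 0.00 with median-of-ratios scaling. Muscle genes whose groups do not overlap numbered 0 with median-of-ratios scaling and 0 with equal sums, against 1 as deposited, since Cacng1 was lost. With the replicate block, 2 muscle genes had an unadjusted p under 0.05 and a log2 fold change above 1 in size. Without the block there were 0. At the p alone there were 17 with the block, against 1 without it. The share over all genes was not taken with the block. Whether the rise in these counts is particular to the muscle genes was therefore not tested. The block has no pairing behind it: same-numbered libraries deviated with correlations of -0.05, -0.15 and 0.38, and not every library correlated best with its own number.

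Each of the 6 libraries was left out in turn. The count at an unadjusted p under 0.05 and above 1 in size was largest, at 8, without SFRP2-siRNA 1. There 1.03% of all genes were higher and 1.11% lower by as much. Groups without overlap were also most frequent there, at 22, where 23.7% of all genes were higher and 7.97% lower. For the other left-out libraries the share over all genes was not taken, so their counts are not given. The median log2 fold change ran from 0.18 (without SFRP2-siRNA 3) to 0.81. The difference of the median fast to slow ratio ran from 0.47 (without SFRP2-siRNA 1) to 2.63. Without the troponin C pair, an alternative added after the data were seen, that difference was 1.70. Of 533 fits of single muscle genes, 520 kept direction and 13 reversed, each with 1 library left out. The filters, the fit without trend and the replicate block leave a log2 fold change as it was. Agreement in those fits was therefore fixed in advance. Genes that kept their sign could still shrink, and without SFRP2-siRNA 3 the value fell from 0.49 to 0.088 for Acta1 and from 0.33 to 0.0014 for Tpm2. Without SFRP2-siRNA 1, 9 genes reversed, and their values over the 6 fits ran from -2.35 to 0.20 for Myh7, -2.69 to 0.38 for Myl2, -2.73 to 0.11 for Myl3, -1.47 to 0.36 for Tnnt1, -1.09 to 0.57 for Tnni1, -1.48 to 0.54 for Tnnc1, -0.56 to 0.32 for Tcap, -0.82 to 0.96 for Ckmt2 and -0.63 to 0.55 for Mb. Without SFRP2-siRNA 3, 4 reversed, with ranges of -0.031 to 0.84 for Myh2, -0.032 to 0.62 for Tpm1, -0.19 to 0.78 for Ldb3 and -0.032 to 0.78 for Casq1. The troponin C ratio reversed without SFRP2-siRNA 1, and ran from -0.44 to 1.60. Sfrp2 stayed between 1.12 and 1.98. Beyond these left-out libraries the cause was not tested.

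With 3 libraries a group, p-values rest on few samples. Tnnc2 had 4 to 21 reads, at totals that gave the other muscle genes 46 or more in every library, and the cause was not tested.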
